A study of Mus musculus with 6 samples.

Results

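The genes that handle lactate and pyruvate, 10 of the 54532 genes listed for each library, were followed in macrophages with and without knockdown of PGAM5. The members were chosen for their roles, with earlier results of these data known. Each symbol was matched to its Ensembl identifier in GENCODE M21 (GRCm38). The members are the lactate dehydrogenase genes Ldha and Ldhb, the lactate transporter genes Slc16a1 and Slc16a3, the mitochondrial pyruvate carrier genes Mpc1 and Mpc2, the pyruvate dehydrogenase E1 genes Pdha1 and Pdhb, and the pyruvate dehydrogenase kinase genes Pdk1 and Pdk3. Their mRNA was measured by RNA-seq in iBMDMs, which are bone marrow-derived macrophages of WT mice made into a line with retroviruses that carry v-raf and v-myc. The control group held 3 libraries of cells with a control shRNA, and the PGAM5 KD group held 3 libraries of cells with an shRNA against Pgam5, both delivered by lentivirus. Every library came from cells given LPS at 100 ng/ml for 4 hours, so no unstimulated level was measured. Each group rests on its own shRNA, so an effect of Pgam5 loss and a difference between the infected lines cannot be told apart. The labels do not say whether the replicates were separate cultures, and the p-values measure only the spread among these libraries.

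Pyruvate is the end product of glycolysis, and a cell can send it along different routes. Lactate dehydrogenase turns pyruvate into lactate and restores the NAD+ that glycolysis needs, and the proton-coupled transporters of the SLC16 family (MCT1 from Slc16a1 and MCT4 from Slc16a3) carry lactate across the plasma membrane, with MCT4 known for export from highly glycolytic cells. The other route runs through the MPC1-MPC2 carrier of the inner mitochondrial membrane to the pyruvate dehydrogenase complex, whose E1 component is built from the products of Pdha1 and Pdhb. The PDK kinases phosphorylate E1 and switch it off. Macrophages given LPS are known for a strong use of glycolysis and a high output of lactate.

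The values are FPKM, fragments scaled to exon length and to the depth of the library, as the authors deposited them. The depth, recovered from these values, ran from 18163463 to 24388917 fragments. Pgam5 itself measured 17.1, 13.0 and 13.4 FPKM in control cells against 4.33, 5.75 and 4.53 FPKM after its knockdown, and the groups did not overlap (log2 fold change -1.40, standard error 0.13, limma adjusted p = 0.000358). Exons of the noncoding gene Gm26718 on the other strand overlap Pgam5 over 1378 of its 2373 exon bases. What this overlap did to the count of Pgam5 was not tested. All 8 macrophage markers examined, among them Cd68, Csf1r and Lyz2, had a mean FPKM of at least 1, and their summed FPKM was 2810 to 2910 in control and 2540 to 2560 in PGAM5 KD libraries. Among 5 neutrophil, 5 fibroblast and 4 T cell markers none reached a mean of 1 FPKM. Of the B cell genes, Ighm had 38.7 to 44.4 FPKM and Ms4a1 was at 0. The sum is mostly Lyz2, and the macrophage markers moved in both directions with the groups, 4 higher, 3 lower and 1 not past the threshold (limma, adjusted over all genes tested). The highest change was that of Fcgr1, from 4.34 ± 0.843 to 14.1 ± 1.49 FPKM (SD, n = 3), and the lowest that of Csf1r, from 231 ± 8.17 to 148 ± 3.14 FPKM (SD, n = 3). The part of these shifts in the results was not tested.

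Of the 10 members, 4 had higher and 0 had lower mRNA levels with PGAM5 KD than with the control shRNA, calling a gene at an adjusted p-value under 0.05. The genes that rose were Slc16a3, Ldha, Pdk1 and Pdk3, with ratios of mean FPKM between 1.34 and 1.74. The RNA was taken from whole cultures, so more cells that express a gene and more RNA per cell cannot be told apart. The pyruvate carrier and E1 genes, and the other lactate transporter gene Slc16a1, did not pass the threshold. Ldhb was at 0 and could not be tested. The test was limma on log2(FPKM + 1) with Benjamini-Hochberg adjustment over the 10540 genes whose mean FPKM was at least 1, a filter that 9 members passed. Over all of these genes, 16.8% were called higher and 14.9% lower, so a rise or fall past the threshold was common in this comparison. Scaled to TPM in place of FPKM, 32.3% of all calls were higher, against 52.9% of the calls on FPKM, and the same 4 members kept their calls. None of the 4 had an absolute log2 fold change above 1, which 1.32% of the genes combined with a call. In either direction 31.7% of the genes were called. The median log2 fold change of the 9 tested members was 0.20, beside 0.013 for all genes tested.

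**Figure D1:**
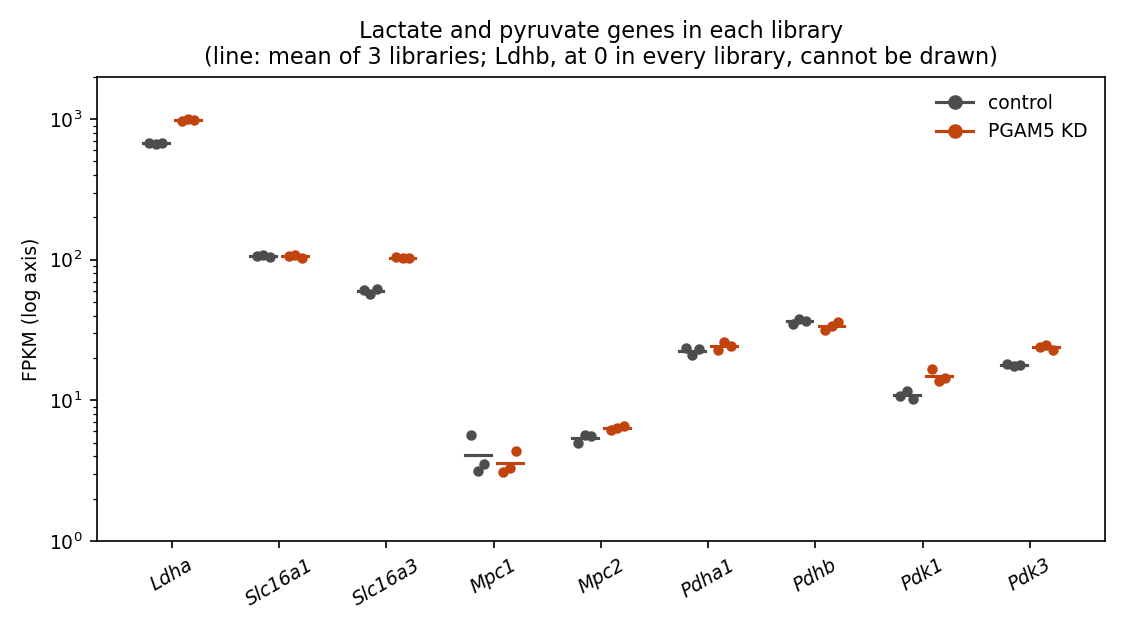
Expression of the members in each library, as FPKM on a log axis, with control libraries in grey, PGAM5 KD libraries in orange and a line at the mean of 3 libraries. The groups stand apart for Ldha, Slc16a3, Mpc2, Pdk1 and Pdk3, and overlap for Slc16a1, Mpc1, Pdha1 and Pdhb; Ldhb was at 0 throughout and is not drawn.

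The promoters of the 4 genes that rose are shown because Ldha, Slc16a3 and Pdk1 are known targets of the hypoxia-inducible factor HIF-1, which binds the core letters ACGTG and GCGTG in hypoxia response elements. The promoter of Slc16a1 is shown beside them as the transporter gene that did not pass the threshold. Each run is the 250 bases before the RefSeq start site on GRCm38.p6, 5′ to 3′ on the strand of the gene, and capitals mark ACGTG or GCGTG on either strand (CACGT and CACGC are their reverse complements, and CACGTG holds ACGTG on both strands).
Ldha (chr7:46845554-46845803, plus strand): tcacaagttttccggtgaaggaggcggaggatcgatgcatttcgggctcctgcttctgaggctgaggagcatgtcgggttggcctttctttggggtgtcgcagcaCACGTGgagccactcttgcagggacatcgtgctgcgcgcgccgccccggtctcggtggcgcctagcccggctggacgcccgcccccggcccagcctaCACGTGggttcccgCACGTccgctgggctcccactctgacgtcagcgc
Slc16a3 (chr11:120948817-120949066, plus strand): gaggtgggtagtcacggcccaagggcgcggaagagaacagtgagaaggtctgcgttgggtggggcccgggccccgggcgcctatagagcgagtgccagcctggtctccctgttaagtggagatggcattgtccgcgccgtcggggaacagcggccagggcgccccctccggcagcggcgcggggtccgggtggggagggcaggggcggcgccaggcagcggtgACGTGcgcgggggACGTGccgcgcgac
Pdk1 (chr2:71872974-71873223, plus strand): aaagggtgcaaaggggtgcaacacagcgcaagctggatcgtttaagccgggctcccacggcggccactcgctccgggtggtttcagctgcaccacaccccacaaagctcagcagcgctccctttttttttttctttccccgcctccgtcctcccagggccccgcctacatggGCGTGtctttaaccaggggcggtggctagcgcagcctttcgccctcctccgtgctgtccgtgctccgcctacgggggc
Pdk3 (chrX:93832151-93832400, minus strand): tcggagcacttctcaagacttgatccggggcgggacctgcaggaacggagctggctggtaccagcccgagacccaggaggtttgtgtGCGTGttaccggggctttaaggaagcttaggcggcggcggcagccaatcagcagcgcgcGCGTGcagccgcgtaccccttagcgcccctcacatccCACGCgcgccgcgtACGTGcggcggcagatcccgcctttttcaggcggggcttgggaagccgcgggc
Slc16a1 (chr3:104638414-104638663, plus strand): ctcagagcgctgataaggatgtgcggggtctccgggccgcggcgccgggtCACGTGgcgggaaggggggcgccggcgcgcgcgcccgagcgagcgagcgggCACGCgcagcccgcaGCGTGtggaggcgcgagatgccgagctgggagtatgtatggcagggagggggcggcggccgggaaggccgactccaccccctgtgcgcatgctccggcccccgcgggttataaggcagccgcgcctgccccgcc
Ldha held CACGTG at 2 places, and its last core match began 34 bases before the start. Slc16a3 held ACGTG at 27 and 14 bases before its start. Pdk1 held a single GCGTG, and Pdk3 held 1 ACGTG and 3 GCGTG. The core ACGTG was found for 3 of the 4 genes that rose (Ldha, Slc16a3 and Pdk3) and for 2 of the 6 other members (Slc16a1 and Pdhb), too few genes for a comparison. At least 1 of the 2 cores was found in a window of each of the 10 members, Ldhb included, although other RefSeq windows of Mpc1 and Pdk1 held none. Over all 32851 promoter windows of this length, 38.6% held at least 1 core, 16.6% held ACGTG and 6.02% held CACGTG. These shares are per window, whereas the counts of members are per gene over any of its windows. The counts and the shares are therefore not alike and cannot be compared. A match of letters is not a binding site, and no binding was measured.

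Slc16a3, which encodes MCT4, had the largest change among the members. It lies at chr11:120948480-120960868 on the plus strand (ENSMUSG00000025161). Its level was 60.4, 57.3 and 61.4 FPKM in control replicates 1 to 3, and 105, 102 and 104 FPKM in PGAM5 KD replicates 1 to 3. The lowest PGAM5 KD library was far above the highest control library, and replicates of a group lay close together. Mean FPKM went from 59.7 ± 2.18 (SD, n = 3) to 104 ± 1.28 (SD, n = 3), a ratio of 1.74. On the log2 scale this was 0.79 with a standard error of 0.036 (limma adjusted p = 2.46e-05), and the 95% interval ran from 0.70 to 0.87. Between 5838 and 13452 fragments per library lay behind these values, and no other annotated gene resembled Slc16a3 or overlapped its exons.

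Slc16a1, which encodes MCT1, lies at chr3:104638668-104658462 on the plus strand (ENSMUSG00000032902). It had 105.8, 107.6 and 105.3 FPKM in control libraries and 106.8, 108.9 and 103.3 FPKM in PGAM5 KD libraries. The groups overlapped entirely, with the highest and the lowest value both in PGAM5 KD cells. The estimate of 0.0015 on the log2 scale missed the threshold (limma adjusted p = 0.977), and its 95% interval ran from -0.073 to 0.076. The sign of so small a value changed with the scaling, and scaled to TPM it was -0.077 (limma adjusted p = 0.123).

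The transporter genes therefore stood in a different proportion in the groups. In control cells Slc16a3 gave 36.4%, 34.7% and 36.8% of the summed FPKM of both transporter genes. In PGAM5 KD cells it gave 49.5%, 48.4% and 50.1%. The summed FPKM of both was 165.9 ± 1.01 (SD, n = 3) in control and 210 ± 2.58 (SD, n = 3) in PGAM5 KD cells. In the control libraries every value of Slc16a1 was above every value of Slc16a3, whereas in the PGAM5 KD libraries the FPKM of these genes overlapped. That overlap depends on the length used, and Slc16a3 was above Slc16a1 in PGAM5 KD cells when divided by the longest coding transcript (127 ± 1.57 against 106 ± 2.84, SD, n = 3). These proportions are scores over chosen genes and were given no test. The share itself depends on the length scaling, and in fragments it was 40.3% ± 1.15 in control and 53.9% ± 0.841 in PGAM5 KD cells (SD, n = 3). Its rise was 13.4 percentage points in FPKM and 13.6 in fragments.

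Basigin (Bsg), the membrane partner that brings MCT1 and MCT4 to the cell surface, was higher in PGAM5 KD cells as well. Its mean FPKM was 174 ± 8.25 (SD, n = 3) in control and 235 ± 7.24 (SD, n = 3) in PGAM5 KD cells, a log2 difference of 0.43 (standard error 0.043, limma adjusted p = 0.000506). Embigin (Emb), another partner of these transporters, had at most 0.113 FPKM in any library. The remaining transporter genes were low too, with Slc16a7 (MCT2) at a mean of 0.524 FPKM and Slc16a8 (MCT3) at a mean of 0.246 FPKM over the 6 libraries, and neither was tested. Hcar1, which encodes a receptor for lactate, was at 0 in each library.

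Ldha, at chr7:46841475-46855627 on the plus strand (ENSMUSG00000063229), encodes the LDH-A subunit. It was the most abundant member in each library by FPKM. The control libraries had 676, 661.8 and 676 FPKM and the PGAM5 KD libraries had 974, 999 and 992 FPKM. The lowest PGAM5 KD library exceeded the highest control library, and the ratio of the means was 1.47. This rise came to 0.56 on the log2 scale (standard error 0.025, limma adjusted p = 2.45e-05). Under quantile normalization it was 0.31 and stayed past the threshold. Ldha has 24 annotated processed pseudogenes that resemble it, and at least 99.7% of the fragments on all of these genes were on Ldha.

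Ldhb, which encodes the LDH-B subunit, lies at chr6:142490249-142507957 on the minus strand (ENSMUSG00000030246) and had 0 fragments in each of the 6 libraries. A count of 0 allows up to 3 fragments, or 0.0783 to 0.105 FPKM at the depth of these libraries, which covers counting error only. Against that limit Ldha was at least 6426-fold higher in FPKM in every library. The processed pseudogene Gm5514, which is 98.0% identical to Ldhb over 1002 bases, was at 0 as well. Ldhc, known from testis, had at most 4 fragments in a library, Ldhd at most 8, and Ldhal6b had 0. Ldha thus stood for nearly all lactate dehydrogenase mRNA in both groups, and no change of isoform could be seen at this depth.

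Pkm, whose product pyruvate kinase makes pyruvate, had 968 ± 29.2 FPKM (SD, n = 3) in control and 1249 ± 27.3 FPKM (SD, n = 3) in PGAM5 KD cells, and rose by 0.37 on the log2 scale (standard error 0.032, limma adjusted p = 0.000305). Quantile normalization gave 0.20 for Pkm, still past the threshold. Pklr, the pyruvate kinase gene of liver and red cells, was at 0.

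Pyruvate entry into mitochondria was examined next, and here no member passed the threshold. Mpc2 lies at chr1:165460637-165481214 on the plus strand (ENSMUSG00000026568). Its levels were 4.93, 5.71 and 5.61 FPKM in control libraries and 6.17, 6.39 and 6.57 FPKM in PGAM5 KD libraries. The groups did not overlap, and the exact two-sided permutation test gave p = 0.1, the smallest value that 3 libraries against 3 allow. Ldha, Slc16a3, Pdk1 and Pdk3 had the same p of 0.1 in that test. Over all genes tested, 24.2% had groups apart with PGAM5 KD higher, 22.9% with PGAM5 KD lower and 47.1% in either direction. The estimate for Mpc2 was 0.20 on the log2 scale (standard error 0.067, limma adjusted p = 0.0581), with a 95% interval from 0.044 to 0.36. It was 0.23 and past the threshold with voom on the recovered fragments (adjusted p = 0.0243).

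Mpc1, at chr17:8282904-8297661 on the plus strand (ENSMUSG00000023861), had the widest spread for its level among the members. It had 5.66, 3.12 and 3.52 FPKM in control libraries and 3.10, 3.31 and 4.39 FPKM in PGAM5 KD libraries. Control replicate 1 was the highest of the 6, and the other control libraries lay within the range of the PGAM5 KD libraries. The estimate was -0.13 on the log2 scale (standard error 0.19, limma adjusted p = 0.655), and its 95% interval from -0.58 to 0.33 spans changes in either direction. Without control replicate 1 it was 0.082, and without control replicate 2 it was -0.26.

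The level of Mpc1 also depends on where the authors' counting placed its fragments. Mpc1-ps, a processed pseudogene at chr12:110858565-110858894 on the minus strand, is identical to the Mpc1 transcript over 261 bases. It held 210, 280 and 226 fragments in the control libraries and 319, 310 and 402 in the PGAM5 KD libraries, while Mpc1 held 214, 131 and 143 fragments and 142, 125 and 223 fragments. Mpc1 thus had from 28.7% to 50.5% of the fragments of both genes, and the highest share was that of control replicate 1. Taken at face value Mpc1-ps rose, from 37.4 ± 4.04 FPKM (SD, n = 3) to 48.6 ± 4.05 FPKM (SD, n = 3), or 0.37 on the log2 scale (limma adjusted p = 0.0192). With the fragments of Mpc1 and of the genes that resemble or overlap it added together, the estimate for Mpc1 turned to 0.16 (standard error 0.092, limma adjusted p = 0.223). The direction of Mpc1 was therefore not resolved, and how many fragments belong to the carrier gene was not tested.

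**Figure D2:**
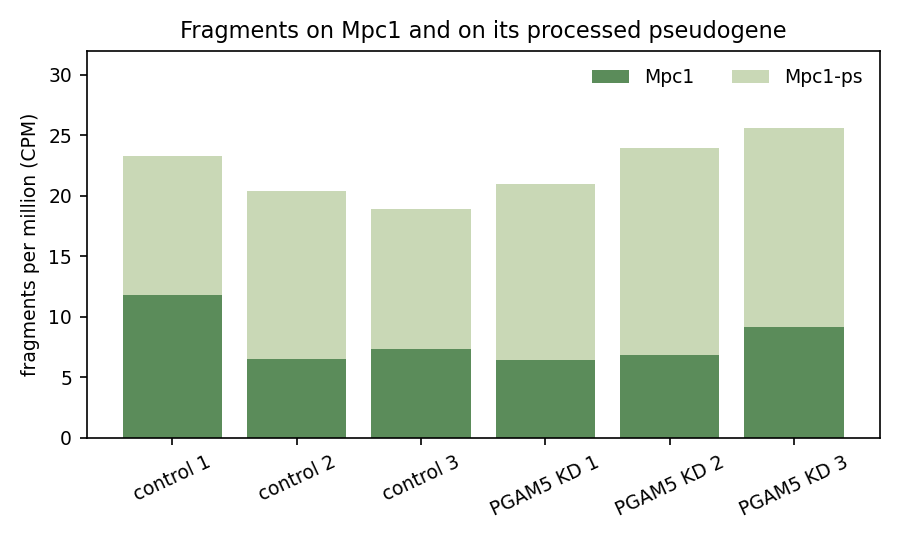
Fragments on Mpc1 (dark) and on its processed pseudogene Mpc1-ps (light) in each library, scaled to the depth of the library (CPM). Mpc1 held the smaller part in 5 of the 6 libraries, and the sum of both ran from 18.9 to 25.6 CPM.

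The E1 genes of pyruvate dehydrogenase did not pass the threshold in either direction. Pdhb, which encodes the beta subunit, lies at chr14:8165996-8173025 on the minus strand (ENSMUSG00000021748). It had 34.9, 37.9 and 36.7 FPKM in control libraries and 31.7, 33.9 and 35.9 FPKM in PGAM5 KD libraries, and the groups overlapped. Its estimate of -0.11 on the log2 scale (standard error 0.055, limma adjusted p = 0.185) missed the threshold. It was -0.063 without PGAM5 KD replicate 1, and scaled to TPM it was -0.19 and past the threshold (limma adjusted p = 0.0351). Pdha1, which encodes the alpha subunit that carries the sites the kinases phosphorylate, lies at chrX:160122209-160138413 on the minus strand (ENSMUSG00000031299). It had 23.5, 20.9 and 23.3 FPKM in control libraries and 22.7, 26.0 and 24.3 FPKM in PGAM5 KD libraries. The groups overlapped, and the 95% interval of its log2 fold change ran from -0.052 to 0.26. The estimate of 0.11 was 0.031 scaled to TPM, 0.053 without control replicate 2, 0.058 without PGAM5 KD replicate 2 and 0.071 with summed fragments. Exons of Map3k15 on the other strand overlap Pdha1 over 603 bases, and at least 94.0% of the fragments of Pdha1, Map3k15 and a pseudogene were on Pdha1. The ratio of Pdha1 to Pdhb FPKM was 0.673, 0.551 and 0.636 in control and 0.714, 0.769 and 0.678 in PGAM5 KD libraries, just apart between the groups.

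The kinase genes rose past the threshold, which the E1 genes had not passed. The difference between the kinase and E1 genes was not tested. Pdk1 lies at chr2:71873224-71903858 on the plus strand (ENSMUSG00000006494) and had 10.7, 11.7 and 10.3 FPKM in control libraries and 16.8, 13.7 and 14.5 FPKM in PGAM5 KD libraries. No control library reached the PGAM5 KD range, in which replicate 1 was highest. Pdk1 rose by 0.43 on the log2 scale (standard error 0.083, limma adjusted p = 0.00901), or by 0.35 without PGAM5 KD replicate 1. Pdk3 lies at chrX:93764607-93832201 on the minus strand (ENSMUSG00000035232) and had 18.2, 17.6 and 17.8 FPKM in control libraries and 24.1, 24.8 and 22.8 FPKM in PGAM5 KD libraries. The groups were well apart, and the rise was 0.40 on the log2 scale (standard error 0.044, limma adjusted p = 0.000856). Neither kinase gene overlapped or resembled another annotated gene.

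Pdk1 and Pdk3 rose by a similar factor, 1.38 and 1.34 in mean FPKM, and Pdk1 gave 37.8% ± 1.88 (SD, n = 3) of their summed FPKM in control and 38.6% ± 2.74 (SD, n = 3) in PGAM5 KD cells. In fragments, which are not scaled to length, the share of Pdk1 was 64.8% ± 1.80 and 65.5% ± 2.63 (SD, n = 3). The difference of 0.750 percentage points in FPKM turned to -0.548 without PGAM5 KD replicate 1. The other kinase genes were near absent, with Pdk2 at 0.287 ± 0.104 FPKM (SD, n = 3) in control and 0.517 ± 0.133 FPKM (SD, n = 3) in PGAM5 KD cells and Pdk4 at 0 in each library. Set against its target, the summed FPKM of Pdk1 and Pdk3 was 0.496, 0.499 and 0.469 of the summed FPKM of Pdha1 and Pdhb in control libraries. In PGAM5 KD libraries this ratio was 0.752, 0.643 and 0.619, above the control range in each case. The phosphatases that reverse the action of the kinases did not pass the threshold. Pdp1 was low (1.34 FPKM in control and 1.57 FPKM in PGAM5 KD cells), Pdp2 differed by -0.16 on the log2 scale (limma adjusted p = 0.0983), and Pdpr, which encodes a regulatory subunit, by -0.19 (adjusted p = 0.241), and the value for Pdpr ran from -0.069 without PGAM5 KD replicate 1 to -0.30 without PGAM5 KD replicate 2, with -0.29 scaled to TPM. Scaled to TPM, Pdp2 passed the threshold at -0.25 (adjusted p = 0.0299).

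**Figure D3:**
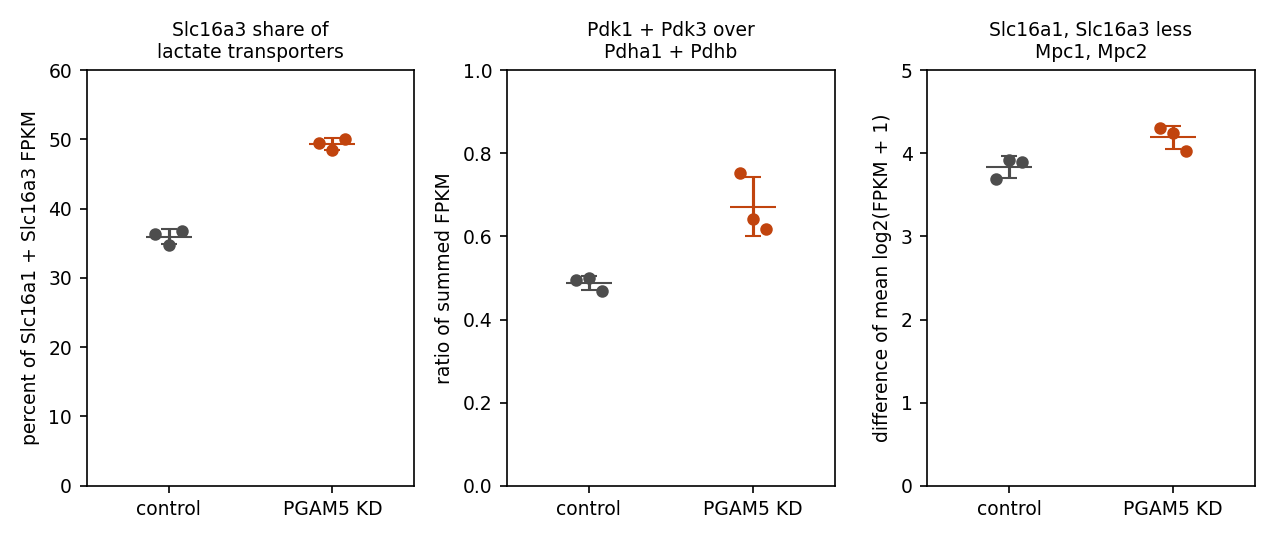
Proportions between members by library (points), with the mean and SD of 3 libraries. Left, the share of Slc16a3 in the summed FPKM of Slc16a1 and Slc16a3 (percent); middle, summed FPKM of Pdk1 and Pdk3 over that of Pdha1 and Pdhb; right, mean log2(FPKM + 1) of Slc16a1 and Slc16a3 less that of Mpc1 and Mpc2. PGAM5 KD libraries were above control libraries in each panel, with means of 49.4% against 36.0%, 0.671 against 0.488 and 4.19 against 3.84.

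Lactate export was then set against pyruvate entry within each library, as the mean log2(FPKM + 1) of Slc16a1 and Slc16a3 less that of Mpc1 and Mpc2. This difference was 3.69, 3.92 and 3.90 in control libraries and 4.30, 4.24 and 4.03 in PGAM5 KD libraries. The groups did not overlap, and the mean was 0.356 higher in PGAM5 KD cells, with an SD of 0.128 in control and 0.140 in PGAM5 KD cells. With Ldha and Ldhb added on the side of export and Pdha1 and Pdhb on the side of entry, the mean was 0.318 higher. When the fragments on resembling genes were added to their members, which raises Mpc1, the transporter difference shrank to 0.211. Of the transporter genes, Slc16a3 made this difference, since the estimate for Slc16a1 was near 0. The score was built from chosen genes and was given no test.

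Levels of the members spanned a wide range. By FPKM in control cells the order was Ldha, Slc16a1, Slc16a3, Pdhb, Pdha1, Pdk3, Pdk1, Mpc2, Mpc1 and Ldhb, and among neighbours only Mpc2 and Mpc1 overlapped between libraries. In PGAM5 KD cells Slc16a1 overlapped with Slc16a3, and Pdha1 with Pdk3. FPKM divides by the summed length of all annotated exons, and for Mpc2 these come to 7344 bases although its coding transcript has 1025. Divided by the longest coding transcript, Mpc2 in control cells had a level of 38.8 ± 3.04 (SD, n = 3) in place of 5.42 FPKM, and Pdhb had 93.1 ± 3.91 (SD, n = 3) in place of 36.5 FPKM. On that scale Pdhb stood above Slc16a3 (73.2 ± 2.68, SD, n = 3) and Mpc2 above Pdha1 (29.6 ± 1.89, SD, n = 3) in control cells. The order between genes is thus partly one of annotation.

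A wider list of 38 further genes of lactate and pyruvate metabolism was read in the same way. Its genes are known parts of the pathway, and the list was drawn up with earlier results of these data known. GENCODE M21 named 37 of them, and 25 had a mean FPKM of at least 1. Of these 25 genes, 10 rose and 1 fell with PGAM5 KD, and the median log2 fold change was 0.13. The share over all genes tested was 16.8% higher and 14.9% lower, with a median of 0.013.

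Among the other parts of the pyruvate dehydrogenase complex, Dlat, the E2 acetyltransferase, rose from 37.2 ± 0.404 to 43.5 ± 1.33 FPKM (SD, n = 3), which is 0.22 on the log2 scale (limma adjusted p = 0.00466). Scaled to TPM, Dlat was at 0.14 and still past the threshold (adjusted p = 0.0363). Dld, the E3 dehydrogenase that other complexes share, had 65.9 ± 2.69 and 72.5 ± 2.06 FPKM (SD, n = 3), and its adjusted p of 0.0435 from limma kept its side of the threshold under only 7 of 16 alternatives. The call of Dld was lost when scaled to TPM (adjusted p = 0.332) and without any 1 library other than control replicate 2 (adjusted p = 0.0628 to 0.13). Pdhx, which tethers E3 to the core, differed by 0.13 on the log2 scale (limma adjusted p = 0.147), or by 0.055 scaled to TPM. Lias, Lipt1 and Lipt2, which supply the lipoyl group of E2, were not past the threshold. The estimate for Lipt2 was 0.38 on the log2 scale, with a standard error of 0.23 (limma adjusted p = 0.248), and ran from 0.21 without PGAM5 KD replicate 1 to 0.59 without PGAM5 KD replicate 3.

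Genes of the other routes of pyruvate differed as well. Pcx, pyruvate carboxylase, which makes oxaloacetate from pyruvate, rose from 4.52 ± 0.320 to 5.66 ± 0.352 FPKM (SD, n = 3) with an adjusted p of 0.0269 from limma, which was lost under 6 of 16 alternatives. These included leaving out control replicate 1 or 3 or PGAM5 KD replicate 2 or 3 (adjusted p = 0.0609 to 0.0851 from limma). The malic enzymes, which make pyruvate from malate, rose for the cytosolic Me1 (log2 fold change 0.51, limma adjusted p = 0.00017) and the mitochondrial Me2 (0.27, adjusted p = 0.00387), and Me3 was at 0. Pck2, the mitochondrial enzyme that makes phosphoenolpyruvate from oxaloacetate, rose by 0.43 on the log2 scale (limma adjusted p = 0.0116). The alanine transaminases Gpt and Gpt2, which exchange pyruvate with alanine, had log2 fold changes of -0.11 and 0.028 and did not pass the threshold. Neither value is stable, since Gpt ran from -0.044 without PGAM5 KD replicate 1 to -0.22 scaled to TPM and Gpt2 turned to -0.037 scaled to TPM and to -0.057 without control replicate 3.

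The malate-aspartate shuttle moves reducing power from cytosolic NADH into mitochondria, and so competes with lactate dehydrogenase for NADH. Its carrier genes Slc25a11 and Slc25a12 rose, by 0.30 (limma adjusted p = 0.00613) and 0.32 (adjusted p = 0.00294) on the log2 scale. Got1, the cytosolic aspartate transaminase of the shuttle, was the only gene of the wider list that fell, from 49.1 ± 2.11 to 39.7 ± 1.22 FPKM (SD, n = 3), or -0.30 on the log2 scale (limma adjusted p = 0.00274). Slc25a13, Got2, Mdh1 and Mdh2 did not pass the threshold, although Mdh2 did so when scaled to TPM (-0.12, limma adjusted p = 0.0344) and under quantile normalization (-0.12, adjusted p = 0.0313), and Slc25a13 without control replicate 2 (0.15, adjusted p = 0.0477). Sirt4, a mitochondrial enzyme known to act on lipoylated E2, differed by -0.032 on the log2 scale (limma adjusted p = 0.814), with 0.004 without PGAM5 KD replicate 1 and -0.11 scaled to TPM.

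**Figure D4:**
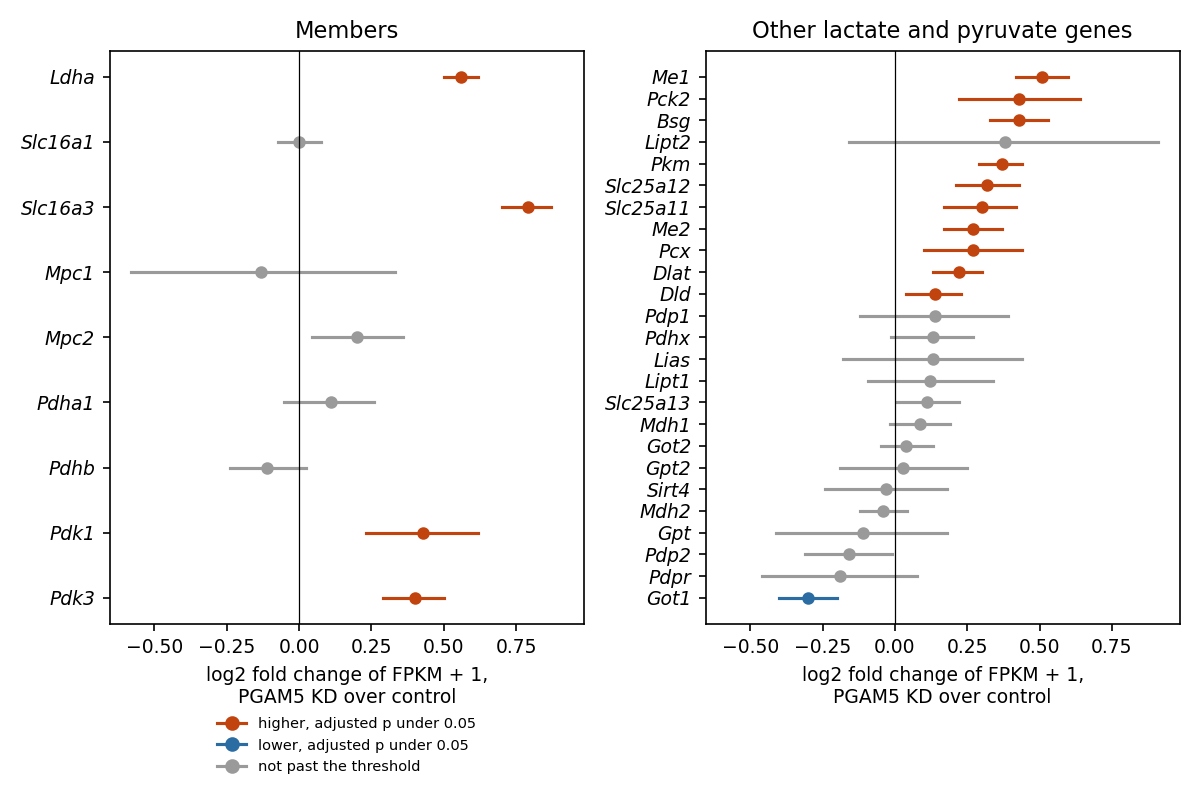
Log2 fold changes of FPKM + 1 in PGAM5 KD over control cells with 95% intervals from limma, for the 9 tested members (left) and the 25 tested genes of the wider list (right). Orange genes were higher (4 on the left, 10 on the right), the blue gene, Got1, was lower, and grey genes did not pass an adjusted p-value of 0.05.

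Finally, 13 genes known to act on transcription of these enzymes were examined, of which 10 were tested, 2 rose and 1 fell. These counts were near the shares over all genes tested, 16.8% higher and 14.9% lower, and so say nothing particular about the regulators. Egln1, a prolyl hydroxylase that marks HIF-1 alpha for decay and is itself a known HIF target, rose from 10.6 ± 0.892 to 14.3 ± 0.199 FPKM (SD, n = 3), or by 0.40 on the log2 scale (limma adjusted p = 0.0035). Esrra, a nuclear receptor that acts on mitochondrial genes, rose by 0.49 on the log2 scale (adjusted p = 0.000548). Myc, a known activator of Ldha, was lower, with 44.7 ± 1.61 and 37.3 ± 1.63 FPKM (SD, n = 3), a log2 difference of -0.25 (limma adjusted p = 0.00648). The cells also carry viral v-myc, and whether any of its fragments were counted on Myc was not tested. Hif1a had 52.6 ± 2.62 and 56.9 ± 1.20 FPKM (SD, n = 3), and its log2 difference of 0.11 missed the threshold (limma adjusted p = 0.0925), though it passed with voom and without control replicate 2 (adjusted p = 0.0338 and 0.0471). The estimate for Hif1a was smaller scaled to TPM (0.036) and under quantile normalization (0.059). Arnt, Vhl, Egln2, Hif1an, Max and Ppargc1b missed the threshold as well (Ppargc1b passed it with voom, at -0.41), and Epas1, Egln3 and Ppargc1a were too low to be tested.

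The calls of the genes that rose were recomputed under 16 alternatives of filter, scaling, model and libraries. Ldha, Slc16a3, Pdk1 and Pdk3 kept both direction and call under each of them, with log2 fold changes of 0.31 to 0.57, 0.71 to 0.81, 0.35 to 0.48 and 0.33 to 0.43.

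**Figure D5:**
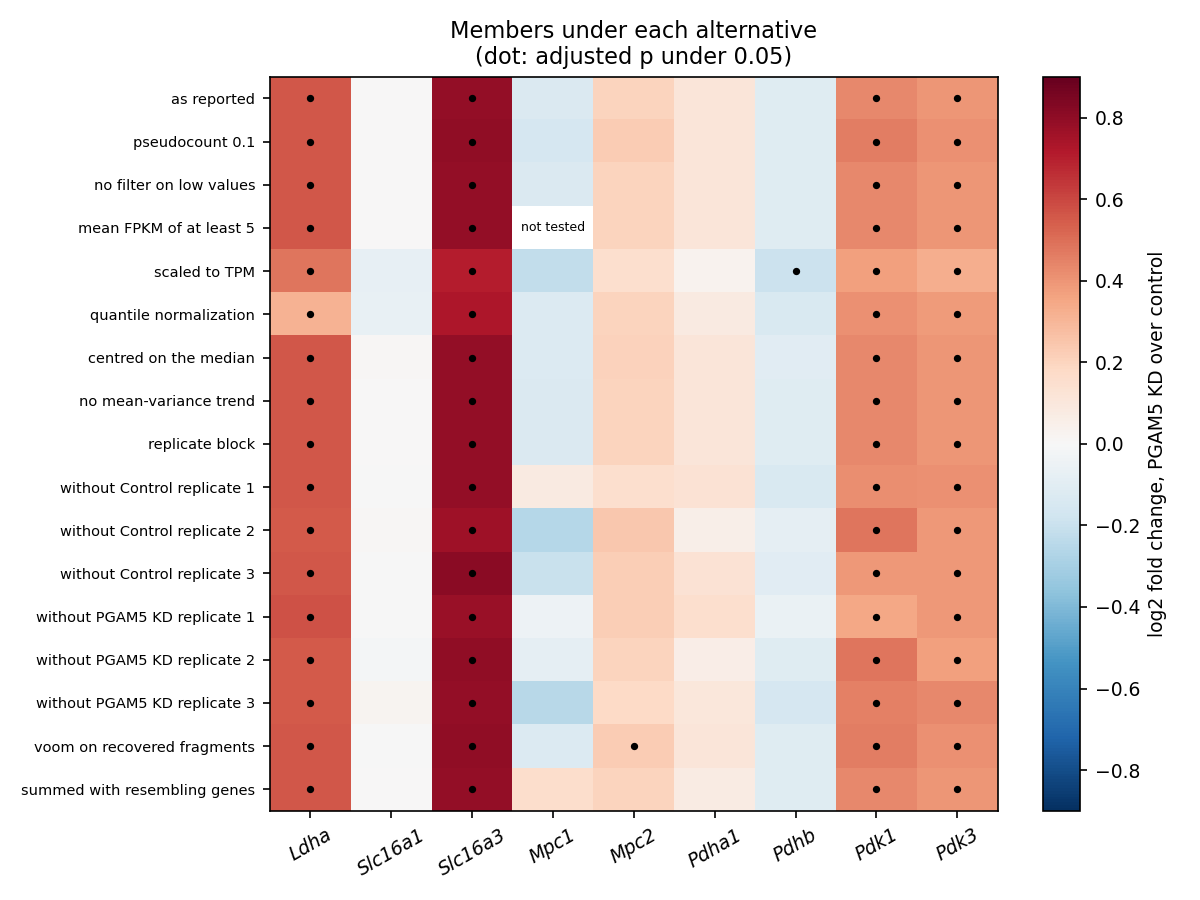
Log2 fold change of each tested member (columns) as reported and under 16 alternatives (rows), with red for higher and blue for lower in PGAM5 KD cells and a dot where the adjusted p-value was under 0.05. The columns of Ldha, Slc16a3, Pdk1 and Pdk3 carry a dot in every row, while Mpc2 and Pdhb carry 1 each and Slc16a1, Mpc1 and Pdha1 none.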

How the data were processed

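RNA-seq was deposited for 6 libraries, 3 per group, 1 table each. The values are FPKM computed by the authors, without scaling between libraries beyond depth. The submitters' processing notes name HISAT2 2.0.5, featureCounts 1.5.0-p3 and mm10; the annotation release and strand setting are not given in the sources used here. Of 54532 genes, 54495 were in GENCODE M21. FPKM multiplied by exon length gave whole fragments within 0.01 for at least 96.8% of values under 1000 fragments, which gave the depth. Genes averaging 1 FPKM or more were fitted as log2(FPKM + 1) with limma 3.58.1 in R 4.3.3 (mean-variance trend, two-sided, Benjamini-Hochberg), checked on simulated data; log2 fold changes on this scale understate low genes. Single genes also had an exact permutation test. Resembling genes were found with blastn 2.17.0 (at least 85% identity over 200 bases). All members were named, with tested genes of the wider and regulator lists, Pgam5 and genes that overlap or resemble a member. Members and lists were chosen with earlier results of these data known. Alternatives were another pseudocount, filter or scaling, no trend, a replicate block, leaving out each library, voom on recovered fragments and summed fragments. Length of the coding transcript, and further alternatives for the scores, were added after the data were seen. RefSeq promoters were matched by symbol for 10 of 10 members. Tables and figures used Python 3.11.15, pandas 2.3.3 and matplotlib 3.10.9. An item of the marker check is not reported here.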

Additional observations from a re-analysis of the deposited data

How the results depend on the processing

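The 4 members called higher kept their calls under all 16 alternatives of the fit, and the other calls of members changed only for Mpc2 with voom (0.23) and for Pdhb scaled to TPM (-0.19), which made 1 member lower in place of 0. The sign of Slc16a1 turned scaled to TPM (-0.077), under quantile normalization (-0.067), with voom (-0.00077) and in 4 of the fits without 1 library, whose range was -0.016 to 0.022. Mpc1 turned to 0.16 with summed fragments and to 0.082 without control replicate 1 (range -0.26 to 0.082 without each library in turn), and it was not tested at a mean FPKM of at least 5. Scaled to TPM, 1088 in place of 1771 of all genes were higher, and 3 in place of 1 of the wider list were lower, as were 2 under quantile normalization. With voom, 2 regulators were lower in place of 1. The difference in the share of Pdk1 ran from -0.548 to 2.18 percentage points without each library, and the difference of export less entry was 0.211 with summed fragments; the cause of these changes was not tested beyond the values given. The numbers did not pair the libraries (correlation of deviations -0.020, 0.016 and -0.052 for equal numbers), and with the replicate block Ldha, Slc16a3, Pdk1 and Pdk3 had log2 fold changes of 0.56, 0.79, 0.43 and 0.40 and no call of a member changed, while Lipt2 of the wider list passed (adjusted p = 0.0432) and 2652 in place of 3346 of all genes passed. Depth sets the limit given for Ldhb.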
